A study of Mus musculus with 16 samples.

Results

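The comparison described here is that of the double knockout with the APP knockout in mouse hippocampus, which asks what the loss of the amyloid precursor-like protein APLP2 changes in tissue that already lacks the amyloid precursor protein APP. Its members are 8 of the 16 arrays of the series, the 4 whose titles carry the name N-dCKO and the 4 whose titles carry the name APPKO. Both groups are male mice of the strain written C56/BL6 in the labels, aged 2 months, and both carry the genotype APP-/-. N-dCKO has the genotype label APP-/-; APLP2-/- and APPKO the label APP-/- alone, so that the loss of APP is common to both groups and the stated difference is APLP2. The other 8 arrays, 4 wild type (WT) and 4 with the genotype APLP2-/- (APLP2KO), hold the labelled loss of APLP2 where APP is present. They are used as a second comparison on other arrays, in a fit that shares the estimate of spread. The series title calls the double knockout neuronal and conditional, while its genotype label names a full loss of both genes. Whether N-dCKO and APLP2KO lost APLP2 in the same cells is thus unknown. Which cells carried the deletion, which Cre drove it, and whether the 4 arrays of a group came from separate animals is unknown here, since the sources used here do not give it. The p-values therefore measure the spread between these arrays, which may be technical.

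APP, APLP1 and APLP2 form a family of membrane proteins with a large extracellular part and a short cytoplasmic tail. Alpha- and beta-secretases shed the extracellular part, and gamma-secretase then releases the tail, which binds adaptor proteins. The family is known for roles in neuronal adhesion, synapse formation and synaptic function, and mice that lack both APP and APLP2 in the whole body die soon after birth, whereas mice that lack a single one live. Hippocampal tissue holds neurons, glia and blood vessels, and it borders the lateral ventricle, where the choroid plexus, an epithelium that secretes cerebrospinal fluid, lies beside it.

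Total RNA was labelled from 6 ug and read on 1-colour Affymetrix mouse arrays with 45101 probe sets. The deposited intensity of each array has a 2% trimmed mean of 500, and all log2 values below are log2(signal + 9), which understates the change of dim genes. No difference in general measures was detected. The median signal was 93.2 ± 6.4 (SD, n = 4) in N-dCKO and 93.4 ± 6.2 in APPKO. RNA integrity, read as Gapdh signal at the 3' end over that at the 5' end, was 0.813 ± 0.017 in N-dCKO and 0.78 ± 0.026 in APPKO (exact two-sided permutation p = 0.114, 0.342 adjusted over 3 quality measures). All 16 arrays had the pattern of male tissue, with the Y-linked gene Eif2s3y between 957 and 1740.

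The signals of App and Aplp2 matched the genotype labels. The Aplp2 signal was 5734, 5945, 5406 and 6026 on APPKO arrays 1 to 4 and 860.4, 938, 1132 and 1064 on N-dCKO arrays 1 to 4. Every N-dCKO array lay far below every APPKO array. Aplp2 fell by 2.53 ± 0.12 on the log2 scale (SE, limma adjusted p = 6.28e-11). All 5 Aplp2 probe sets fell, with log2 fold changes from -1.56 to -3.43 and an exact permutation p of 0.0286 each, the smallest that 4 against 4 arrays allow. The signal that was left, 17.3% of the APPKO level for the probe set used, was near that of APLP2KO (847 to 1501), and the position of its probes against the deleted exons was not analysed here.

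App was already low in both groups, and no difference in Aplp1 was detected. App read 2596, 2379.5, 2344 and 2724 in APPKO and 2322, 1959, 2381 and 2103 in N-dCKO, against 17314 to 19940.4 in WT. The difference between the groups that lack APP was -0.20 ± 0.07 (log2; limma adjusted p = 0.426, exact permutation p = 0.0857), and their arrays overlapped. Aplp1, the neuronal member of the family, read 14928 to 15846 in APPKO and 13459 to 16227 in N-dCKO, a difference of -0.07 ± 0.06 (adjusted p = 0.848). A gain in the transcript of the family member that remains was not detected with these arrays.

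**Figure D1:**
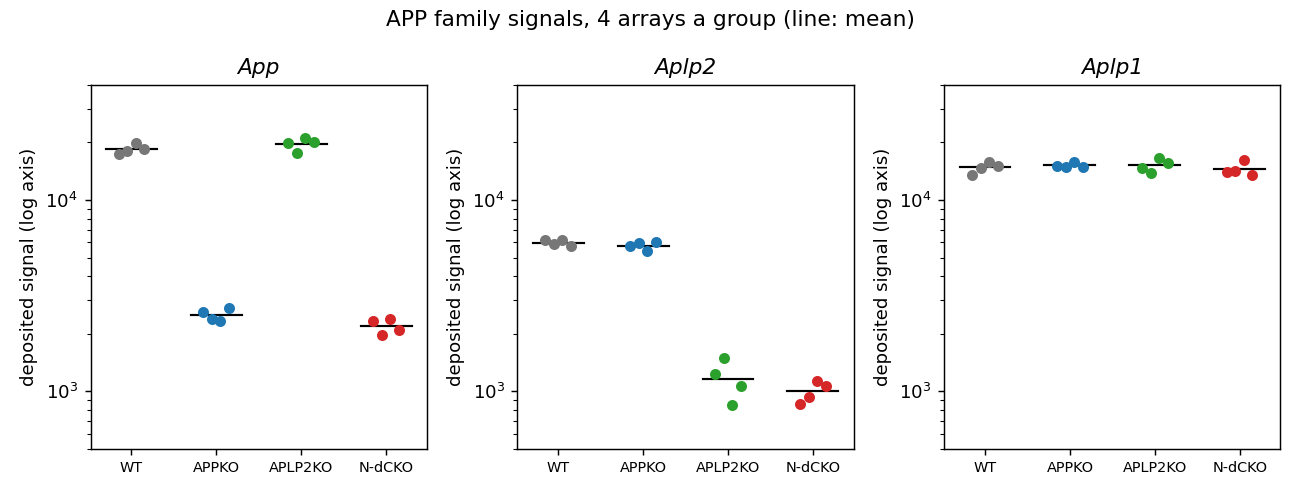
Deposited signal (log axis) of App, Aplp2 and Aplp1 on each of the 16 arrays by group; points are arrays and lines are group means, 4 arrays a group. Aplp2 is low in N-dCKO and APLP2KO, App is low in APPKO and N-dCKO, and Aplp1 overlaps between all 4 groups.

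Of 11664 genes tested, 41 (0.352%) were called at an adjusted p below 0.05, of which 7 (0.06%) were higher and 34 (0.291%) lower in N-dCKO than in APPKO. At an unadjusted p below 0.05 there were 899 genes (7.71%), 420 higher (3.6%) and 479 lower (4.11%). The arrays of the groups did not overlap for 465 genes (3.99%), 228 higher (1.95%) and 237 lower (2.03%). The 41 called genes fall into 4 sets. The first is Aplp2 itself. A set of 16 genes, all lower, belongs to a list of choroid plexus markers or follows that list, where following means a correlation of at least 0.8 with the mean of the list over the 12 arrays outside N-dCKO, after removing group means. A set of 9 genes, 3 higher and 6 lower, lies on chromosome 9, which carries Aplp2. The remaining 15 genes, 4 higher and 11 lower, include markers of microglia. The number called rests on single arrays: it was between 19 and 56 when each of the 16 arrays was left out in turn, 19 without APPKO array 4 and 56 without N-dCKO array 3. Fitted on these 8 arrays alone it was 9, and 2 genes passed an ordinary equal-variance test without moderation.

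**Figure D2:**
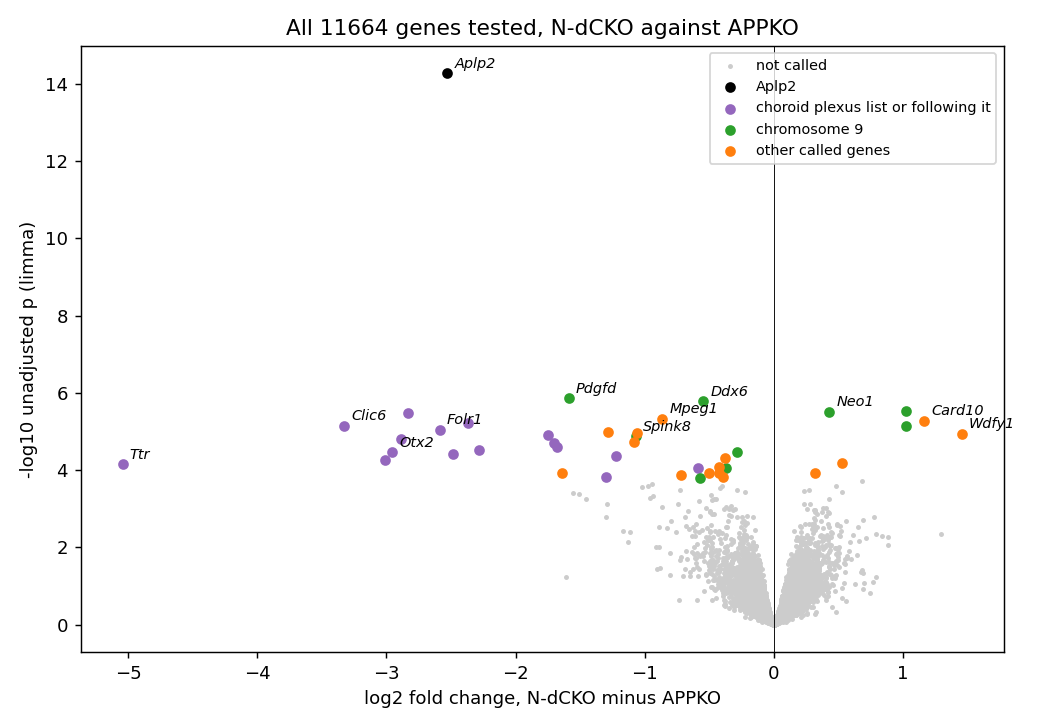
Log2 fold change (N-dCKO minus APPKO) against -log10 of the unadjusted limma p for the 11664 genes tested. Coloured points are the 41 called genes in their 4 sets; the choroid plexus set lies at the far left, and Aplp2 has by far the smallest p.

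Stretches upstream of 5 of these genes are printed to show the DNA next to the start of the deleted gene and of genes from the sets that moved together. They come from the RefSeq promoter windows of build GRCm38.p6, are written 5' to 3' on the gene's strand and hold 120 bases each, ending at the start of transcription except for Fcrls, which ends 44 bases before it. Capitals mark the letters GAGGAA, the core that the myeloid factor PU.1 binds; the search also covered TAATCC, the core bound by OTX factors, and both were searched on both strands. Aplp2 is on the minus strand (chr9:31211849-31211968), as are Kcnj13 (chr1:87394730-87394849) and Fcrls (chr3:87263569-87263688). Aqp1 (chr6:55336179-55336298) and Mpeg1 (chr19:12460650-12460769) are on the plus strand.
Aplp2: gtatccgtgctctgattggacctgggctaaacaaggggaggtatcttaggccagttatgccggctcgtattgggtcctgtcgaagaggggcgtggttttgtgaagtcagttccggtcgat
Kcnj13: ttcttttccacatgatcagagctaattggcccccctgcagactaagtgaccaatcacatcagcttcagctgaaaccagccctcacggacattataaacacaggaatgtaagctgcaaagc
Aqp1: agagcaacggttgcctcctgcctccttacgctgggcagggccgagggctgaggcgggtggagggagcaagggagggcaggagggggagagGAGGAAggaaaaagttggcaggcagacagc
Fcrls: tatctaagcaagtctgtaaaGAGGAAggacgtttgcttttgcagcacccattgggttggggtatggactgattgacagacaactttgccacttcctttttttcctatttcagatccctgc
Mpeg1: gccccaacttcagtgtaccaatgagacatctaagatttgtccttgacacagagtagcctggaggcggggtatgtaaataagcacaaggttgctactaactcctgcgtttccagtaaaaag

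Over the 250 bases before the start, GAGGAA on either strand stood in 9 of the 17 tested microglia list genes that have a window (52.9%), in 5 of 11 called genes of the choroid plexus set (45.5%), in 3 of 15 tested genes of the choroid plexus list (20%), in 5 of 17 called genes outside the set (29.4%) and in 2064 of 9464 tested genes with a window (21.8%). TAATCC stood in 0 of 11 called genes of the choroid plexus set, in 0 of the 15 list genes, in 0 of the 17 called genes outside the set, in 1 of the 17 microglia genes (5.88%) and in 452 of the 9464 (4.78%). These are counts of letters and not of bound sites.

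The largest differences of the comparison were falls of genes of the choroid plexus epithelium. Of 28 markers on the list, 20 were tested, 12 fell, 0 rose and 19 had a negative log2 fold change, where 0.291% of all genes were called lower and 5877 of 11664 were negative. Their median was -1.59, against -0.0011 over all genes tested. The gene lists were chosen with earlier results of these data known, so these counts are not independent of the data. In bulk tissue, fewer cells of a type and less RNA per cell cannot be told apart. N-dCKO arrays 1, 2 and 4 carried the fall, and array 3 carried little of it.

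Ttr encodes transthyretin, the carrier of thyroxine and retinol that the choroid plexus secretes in bulk. It read 31701, 29571, 37234 and 29119 on the APPKO arrays, close to the highest signals of those arrays (32254 to 38601), and 109.8, 283, 34285 and 715 on N-dCKO arrays 1 to 4. N-dCKO array 3 was thus inside the APPKO range while the other N-dCKO arrays lay far below every APPKO array. The fall was called (limma adjusted p = 0.0271) and was lost without any one of the 4 APPKO arrays or of N-dCKO arrays 1, 2 and 4, so no fold change is given for it.

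Ion and water channels of the epithelium fell with it. Clic6, a chloride channel protein, read 414, 688, 775 and 991 in APPKO and 18.0, 34.1, 399 and 38.8 in N-dCKO and fell by 3.33 ± 0.55 (adjusted p = 0.00772) without overlap between the groups. Aqp1, the water channel of the apical membrane, read 175, 227, 286 and 421 in APPKO and 25.9, 53.6, 139 and 14.8 in N-dCKO and fell by 2.37 ± 0.39 (adjusted p = 0.00769), again without overlap. In both genes the highest N-dCKO value was that of array 3. Kcne2, a potassium channel subunit, read 85.9, 268, 234 and 405 in APPKO and 4.98, 4.87, 155 and 10.8 in N-dCKO and fell by 3.01 ± 0.59 (0.0229). Kcnj13, the inward rectifier Kir7.1, read 252, 454, 484 and 639 in APPKO and 24.6, 80.9, 282 and 68.6 in N-dCKO and fell by 2.29 ± 0.42 (0.0164). The groups overlapped in these 2 genes, through N-dCKO array 3 and APPKO array 1. Kcne2 read under 11 on N-dCKO arrays 1, 2 and 4, near the pseudocount, so that its size on the log2 scale is not exact.

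The transcription factor of the tissue and its secreted, receptor and junction proteins moved in the same direction. Otx2, a homeodomain factor that the adult choroid plexus keeps expressing, read 142, 181, 177 and 361 in APPKO and 0.425, 8.38, 132 and 14.4 in N-dCKO and fell by 2.96 ± 0.55 (adjusted p = 0.0168), a call lost without the pseudocount. Folr1, the folate receptor that carries folate into cerebrospinal fluid, read 356, 579.5, 776 and 865 in APPKO and 55.3, 66.2, 385 and 50.3 in N-dCKO and fell by 2.59 ± 0.43 (0.00871). Array 3 was again the highest N-dCKO array for both. Kl, which encodes klotho, fell by 1.71 ± 0.31 (0.0118), Cldn2, a tight junction claudin, by 1.74 ± 0.30 (0.00878), and Sostdc1, a secreted antagonist of BMP and Wnt signals, by 1.22 ± 0.23 (0.0189). Steap1, a metalloreductase, fell by 1.68 ± 0.31 (0.0142) and Car12, a carbonic anhydrase, by 0.58 ± 0.12 (0.0303). Other, dimmer probe sets of Kl (-0.24), Cldn2 (-0.25) and Car12 (-0.07 and -0.21) fell less, and the groups overlapped in them. The list members that did not pass ranged from F5 (-1.51, adjusted p = 0.0848) and Calml4 (-1.46, 0.106) to Igf2 (-0.30, 0.642) and Slc5a5 (0.07, 0.928).

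Outside the list, 4 called genes followed it. Of all genes tested, called or not and list members included, 60 followed it, so most that followed were not called. Ecrg4, which encodes a secreted peptide precursor, read 925, 1796, 2445 and 3282 in APPKO and 107, 176, 1271 and 157 in N-dCKO and fell by 2.89 ± 0.51 (adjusted p = 0.00997). The beta-defensin gene Defb11 fell by 2.83 ± 0.44 (0.00627) with signals of 132 to 421 in APPKO and 7.53 to 100.4 in N-dCKO, and Prr32 fell by 2.48 ± 0.47 (0.0182). Sulf1, an enzyme that removes sulfate from heparan sulfate, fell by 1.30 ± 0.28 (0.0448) and lost its call in 12 of the 16 fits without 1 array. Of the 16 called genes of the choroid plexus set, Aqp1, Clic6, Defb11 and Folr1 kept the call in all 16 such fits. Fitted on the arrays of the groups compared alone, no gene of the set was called. Krt8 and Krt18, the keratin pair of simple epithelia, fell by 1.64 ± 0.34 (adjusted p = 0.0382) and 1.09 ± 0.19 (0.0111) without overlap, though they did not meet the correlation that defines following. The call of Krt8 was lost in 11 and that of Krt18 in 2 of the 16 fits.

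Averaged over the choroid plexus list, log2 signal was 6.50, 6.86, 8.54 and 6.79 on N-dCKO arrays 1 to 4. It was 8.36, 8.89, 9.05 and 9.38 on APPKO arrays 1 to 4, 8.74 to 9.60 in WT and 8.67 to 8.89 in APLP2KO. N-dCKO arrays 1, 2 and 4 stood apart from all other arrays of the series, and array 3 was within the APPKO range. Without N-dCKO array 3, the 16 genes of the set were all called and fell by a median of 2.96 on the log2 scale, against 2.43 with it. With array 3 as the only N-dCKO array, a setting chosen after seeing the data and given here as values with no test, their median was -0.60, with 15 of 16 below 0. With the list mean as a covariate in the fit, 0 of the 16 were called, their median was -0.16, and Aplp2 (-2.34 ± 0.19, adjusted p = 2.54e-06) was the 1 gene called over all genes. The list holds 12 of these 16 genes, so the covariate takes out their own fall and their lost calls are no separate result. It also differed between the groups, and standard errors rose with it, that of Aplp2 from 0.12 to 0.19.

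The other lists of cells that border the ventricle or the tissue surface had negative medians and no called gene. Of 14 tested genes of the ependyma and its motile cilia 13 were negative (median -0.20), with Cfap126 at -0.66 ± 0.20 (adjusted p = 0.267) and Mia at -0.49 ± 0.18 (0.476). Of 14 genes of the leptomeninges and fibroblasts 13 were negative (median -0.20), with Ogn, a small proteoglycan, at -0.89 ± 0.26 (0.257). Both medians turned positive with the choroid plexus list mean in the fit, to 0.22 and 0.05. The smooth muscle gene Tagln read 111, 95.1, 108 and 97.0 in N-dCKO and 338, 163, 177 and 349.8 in APPKO (-1.17 ± 0.36, 0.292); the groups did not overlap, and APPKO arrays 1 and 4 lay well above arrays 2 and 3. Endothelial genes had a median of -0.09 over 13 genes. The part that these cells have in the results was not tested.

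**Figure D3:**
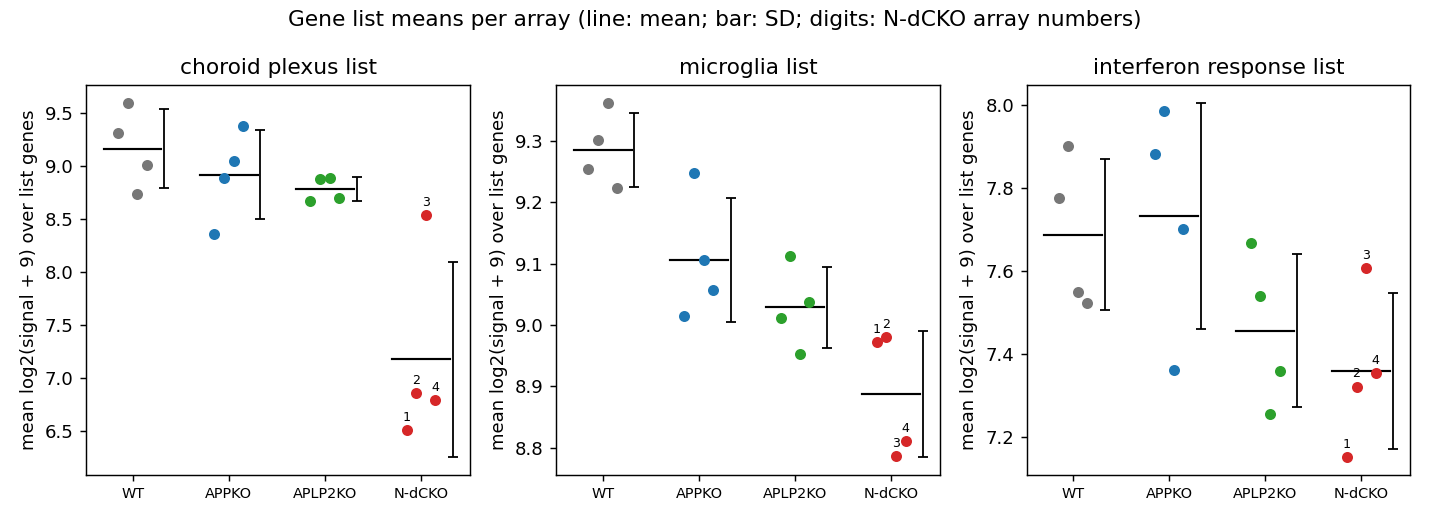
Mean log2(signal + 9) over the tested genes of the choroid plexus, microglia and interferon response lists on each array, by group; lines are means, bars are SD (n = 4), and digits number the N-dCKO arrays. N-dCKO array 3 lies near the other groups for choroid plexus genes and lowest of all for microglia genes, where the 4 N-dCKO arrays (8.79 to 8.98) lie below the 4 APPKO arrays (9.02 to 9.25).

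Microglia, the resident macrophages of the brain, showed a smaller shift that N-dCKO array 3 shared. Their list, too, was chosen with earlier results of these data known. Of 25 markers on the list 23 were tested, 3 fell, 0 rose and 21 were negative, with a median of -0.15, where 0.291% of all genes were called lower and 5877 of 11664 were negative. The list mean was 8.97, 8.98, 8.79 and 8.81 on N-dCKO arrays 1 to 4 and 9.02, 9.25, 9.11 and 9.06 on APPKO arrays 1 to 4. These groups did not overlap, and array 3 was the lowest of all 16. Such a gap was not particular to microglia. The endothelial, pericyte, leptomeninges, complement, oxidative phosphorylation and APP family list means were also lower in N-dCKO without overlap. The astrocyte list mean was higher without overlap. With array 3 as the only N-dCKO array the median of the microglia list was -0.19, without that array -0.14, and with the choroid plexus covariate -0.25, so the sign held in each.

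Mpeg1, the pore-forming perforin-2 of macrophages, read 406, 595, 421 and 504 in APPKO and 302, 292, 222 and 225 in N-dCKO. All N-dCKO arrays were below all APPKO arrays, and the fall was 0.86 ± 0.14 (adjusted p = 0.00764), called in all 16 fits without 1 array. Fitted on the arrays of the groups compared alone, Mpeg1 lost its call. Fcrls, a receptor-like gene typical of microglia, read 521, 706, 757 and 667 in APPKO and 496, 329, 319.9 and 466 in N-dCKO and fell by 0.72 ± 0.15 (0.0413). C1qa, a chain of the complement initiator C1q, read 1383, 1569, 1513 and 1489.5 in APPKO and 1158, 1238, 986 and 1209.8 in N-dCKO and fell by 0.38 ± 0.07 (0.0203). Neither overlapped, but the call of Fcrls was lost in 10 and that of C1qa in 4 of the 16 fits. Selplg (-0.40 ± 0.09, adjusted p = 0.0665) and C1qc (-0.24 ± 0.07, 0.225) did not overlap either and did not pass.

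The microglia genes did not move as one block. C1qb was at -0.13 ± 0.07, Tyrobp at -0.07 ± 0.08 and Tmem119 at -0.26 ± 0.09. The receptor genes Csf1r (-0.05 ± 0.05), Cx3cr1 (-0.02 ± 0.09) and P2ry12 (-0.01 ± 0.11), which define microglia in the healthy brain, were close to 0, with adjusted p of 0.886, 0.972 and 0.995. Gpr34 was at 0.18 ± 0.14. The list thus held 3 called genes beside homeostatic receptors whose differences were under 2 standard errors.

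Genes of complement and antigen presentation other than C1qa were not called; 9 of the 11 tested were negative with a median of -0.16, such as Tapbp at -0.26 ± 0.10 and B2m at -0.16 ± 0.08. Of 13 interferon response genes 1 fell, 12 were negative and the median was -0.48, where 0.291% of all genes were called lower. The list mean was 7.15 to 7.61 in N-dCKO and 7.36 to 7.98 in APPKO, so the groups overlapped. Ifi27, an interferon-induced mitochondrial protein, read 1009, 1136, 1081 and 976 in APPKO and 639 to 917 in N-dCKO and fell by 0.51 ± 0.11 (adjusted p = 0.0382) without overlap. Rsad2, the antiviral viperin (-0.83 ± 0.25, 0.263), and Ifitm3 (-0.48 ± 0.12, 0.106) did not overlap and did not pass. The list median was -0.51 without N-dCKO array 3 and -0.16 with that array alone, closer to 0 as for the choroid plexus list. The call of Ifi27 was lost in 10 of the 16 fits without 1 array.

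Chromosome 9 carried 11 called genes of 673 tested (1.63%), against 30 of 10991 elsewhere (0.273%). At an unadjusted p below 0.05 it had 98 genes (14.6%), against 801 (7.29%) elsewhere. One of the 11, Car12, is in the choroid plexus set. Apart from Aplp2 no called gene lay within 10 Mb of it, where 91 genes were tested. Within 20 Mb, by the RefSeq table of GRCm38.p6, lay Ddx6 at 13.4 Mb, Fxyd2 at 14.2 Mb and 2900052N01Rik at 15.7 Mb. The others were Pdgfd at 24.8 Mb on the opposite side, Neo1 at 27.8, Coro2b at 31.3, Tmem30a at 48.6, Spink8 at 78.6 and Ccdc12 at 79.5 Mb. Within 10 Mb of App, on chromosome 16, 2 of 62 genes were called, Clic6 and Kcne2 of the choroid plexus set.

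The groups did not overlap in any of the 9 genes of this set, against 3.99% of all genes, and nothing is read from that since the same comparison called them. With the choroid plexus covariate 0 of the 9 were called, while all 9 kept their sign and their median was -0.39, against -0.37 without it. Standard errors rose with the covariate, that of Ddx6 from 0.08 to 0.13, so the lost calls do not show smaller differences. Pdgfd, a ligand of the PDGF beta receptor, read 276, 243, 280.0 and 385 in APPKO and 62.4, 60.5, 174 and 102 in N-dCKO and fell by 1.59 ± 0.23 (adjusted p = 0.00627). Fxyd2, the gamma subunit of the sodium pump, read 152, 183, 209 and 168 in APPKO and 348, 427, 440.4 and 283 in N-dCKO, a rise of 1.02 ± 0.17 (0.00772). The RIKEN transcript 2900052N01Rik read 1388, 1319, 855 and 1009 in APPKO and 1881, 2626, 2668 and 2077 in N-dCKO, a rise of 1.02 ± 0.16 (0.00627). The N-dCKO signal was 33.7% of that in APPKO for Pdgfd, 210.4% for Fxyd2 and 202.4% for 2900052N01Rik. Pdgfd was highest among the N-dCKO arrays on array 3, and with that array alone its difference was -0.72, a value with no test.

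Neo1, neogenin, a receptor of netrins and repulsive guidance molecules, read 2320.2, 2190.3, 2206 and 2309.5 in APPKO and 3468, 2921, 2692 and 3116 in N-dCKO, a rise of 0.43 ± 0.07 (adjusted p = 0.00627). Spink8, a serine protease inhibitor of the Kazal type, read 814, 828, 893 and 832 in APPKO and 488, 484, 287 and 361 in N-dCKO and fell by 1.07 ± 0.19 (0.00896). Ddx6, an RNA helicase of processing bodies, read 3891, 4338, 3619.7 and 3831 in APPKO and 2809, 2344, 2514 and 3075 in N-dCKO and fell by 0.55 ± 0.08 (0.00627). Spink8 was lowest on N-dCKO array 3, and with that array alone it was at -1.52 and Ddx6 at -0.64, again values with no test. These 3 genes and Pdgfd, Fxyd2 and 2900052N01Rik were called in all 16 fits without 1 array. Pdgfd and Neo1 lost the call when only the arrays of the groups compared were fitted.

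Smaller falls on the chromosome were Coro2b, an actin-binding coronin (-0.57 ± 0.12, adjusted p = 0.0465), Tmem30a, a subunit of phospholipid flippases (-0.37 ± 0.08, 0.0303), and Ccdc12 (-0.28 ± 0.05, 0.0168). Probe sets of one gene differed in several cases. Neo1 had others at 0.29, 0.27, -0.13 and -0.56, with the negative ones at mean signals of 29.5 and 20.4 in APPKO. Ddx6 had others at -0.02, -0.55 and -0.18, Tmem30a at 0.19, -0.01, 0.07 and -0.10, Coro2b at -0.08, Ccdc12 at -0.02 and -0.08, and Pdgfd at -0.34 and -0.38. When probe sets were averaged per gene, the calls of Ddx6, Tmem30a, Coro2b and Ccdc12 were lost. For 2900052N01Rik all 3 probe sets were higher, at 1.02, 1.17 and 0.38, and for Fxyd2 3 of 4, with the other at mean signals of 3.73 in APPKO and 2.67 in N-dCKO.

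**Figure D4:**
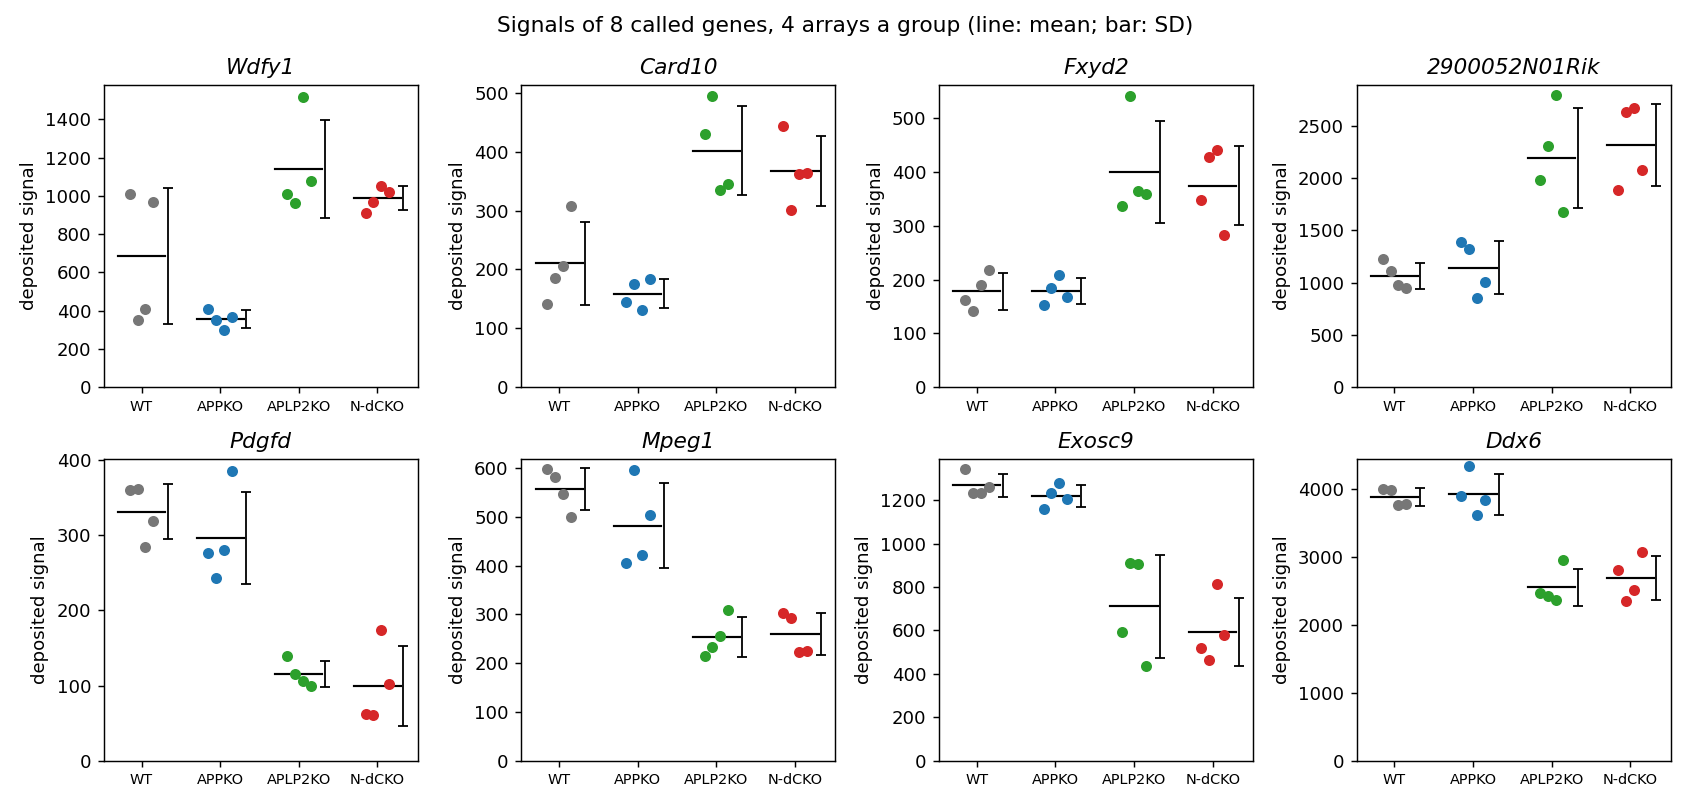
Deposited signal of 8 called genes on each array by group; lines are means and bars SD (n = 4). Wdfy1, Card10, Fxyd2 and 2900052N01Rik are higher and Pdgfd, Mpeg1, Exosc9 and Ddx6 lower in N-dCKO than in APPKO on all arrays, and the WT arrays of Wdfy1 split into 2 low and 2 high.

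The rises of the largest size lay on other chromosomes. Wdfy1, an endosomal protein with a FYVE domain, read 409, 351, 299 and 365 in APPKO and 911, 967, 1050.2 and 1021 in N-dCKO, a rise of 1.45 ± 0.25 (adjusted p = 0.00878). The WT arrays 1 to 4 read 1012, 351, 407 and 969, so that WT held both the low level of APPKO and the high level of N-dCKO, while APLP2KO (960.3 to 1518) was high throughout. The WT arrays of Wdfy1 thus spanned a range like that between the groups compared. Card10, a scaffold protein of NF-kappaB signalling, read 145, 176, 131 and 183 in APPKO and 444, 300.2, 362 and 364 in N-dCKO, a rise of 1.16 ± 0.19 (0.00764). Its WT arrays read 142, 185, 206 and 308, and 1 of them was inside the N-dCKO range.

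Trub2, a pseudouridine synthase, rose by 0.53 ± 0.10 (adjusted p = 0.0265) with signals of 281 to 362 in APPKO and 423 to 533 in N-dCKO. Its other probe sets were at 0.40 and 0.10 with overlap between the groups, and the call was lost when probe sets were averaged per gene. Slc6a15, a neuronal transporter of neutral amino acids, rose by 0.32 ± 0.07 (0.0382) with signals of 2571 to 2681 in APPKO and 2979 to 3548 in N-dCKO. The call of Trub2 was lost in 6 and that of Slc6a15 in 10 of the 16 fits without 1 array, while Wdfy1 and Card10 kept theirs.

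Exosc9, a core subunit of the RNA exosome, and Cetn4, a centrin, lie 0.75 Mb apart on chromosome 3 and fell together. Other called genes also lie near each other. Krt8, Krt18 and Myg1, within 0.33 Mb on chromosome 15, all fell, as did Ccdc12 and Spink8, 0.86 Mb apart on chromosome 9. Ddx6 and Fxyd2, 0.78 Mb apart there, moved in opposite directions. Exosc9 read 1159.6, 1232, 1281 and 1203 in APPKO and 518, 463, 815 and 577 in N-dCKO and fell by 1.06 ± 0.18 (adjusted p = 0.00878). Cetn4 read 550.4, 588, 580.4 and 519.6 in APPKO and 163, 194, 429.8 and 183 in N-dCKO and fell by 1.29 ± 0.22 (0.00878). For both, N-dCKO array 3 was the highest of its group and still below every APPKO array, and both calls held in all 16 fits without 1 array. When only the arrays of the groups compared were fitted, Exosc9 kept its call and Cetn4 did not. The last falls were Myg1 (-0.42 ± 0.09, 0.0382), Tmed4, a cargo receptor of the early secretory pathway (-0.42 ± 0.09, 0.0303), and Stk11, the kinase LKB1 (-0.39 ± 0.08, 0.044). Their calls were lost in 7, 5 and 13 of the 16 fits, and the other probe set of Myg1 and of Stk11 had the opposite sign.

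Genes of APP processing and of proteins that bind the APP tail showed no called change besides Aplp2. Of 15 tested genes of the APP family and its secretases 10 were negative, with a median of -0.07 that turned positive with the choroid plexus covariate. The beta-secretase Bace1 was at 0.20 ± 0.06 (adjusted p = 0.253) and did not overlap between the groups. The gamma-secretase subunit Psen2 was at -0.33 ± 0.12 (0.486) and the alpha-secretase Adam10 at -0.04 ± 0.07 (0.945). Of 29 adaptors and partners of APP none was called and 15 were positive, among them Reln, the secreted reelin, at 0.30 ± 0.09 (0.253), with the adaptor Shc1 at -0.51 ± 0.15 (0.258). Of 17 carriers and degrading enzymes of amyloid-beta, Ttr was the 1 called; Apoe, the main apolipoprotein of the brain, was at -0.16 ± 0.04 (0.183) without overlap, and A2m at -0.60 ± 0.17 (0.244).

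No gene on the lists of neuron types, synapses, receptors or channels was called. Of 17 general neuronal markers 11 were positive with a median of 0.02 that turned negative without APPKO array 1, APPKO array 2 or N-dCKO array 3, and Nefm, a neurofilament subunit, was at 0.28 ± 0.07 (adjusted p = 0.129) without overlap. Genes of calcium and sodium channels (21 of 25 positive, median 0.09), glutamate receptors (14 of 22, 0.09), GABA receptors (8 of 11, 0.10), the presynaptic vesicle cycle (20 of 26, 0.06) and synaptic adhesion (16 of 23, 0.05) had positive medians; that of synaptic adhesion turned negative with the choroid plexus covariate. Genes of the postsynaptic density were split, with 9 positive and 11 negative. Markers of dentate granule, CA1, CA2 and CA3 neurons had medians of -0.04, 0.05, 0.05 and -0.0076.

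Single neuronal genes with the smallest p of their lists did not pass. The clock factor Npas2 read 441, 434, 339.8 and 416 in APPKO and 667, 531, 489.7 and 605 in N-dCKO (0.48 ± 0.11, adjusted p = 0.0665) without overlap, and 12 of 18 clock genes were positive. Crh, which encodes corticotropin-releasing hormone, was at 0.56 ± 0.16 (0.217), Cnksr2, a scaffold of the postsynaptic density, at 0.49 ± 0.14 (0.244), Pvalb, parvalbumin, at 0.30 ± 0.09 (0.297), and Sox11, a factor of newborn neurons, at 0.32 ± 0.09 (0.217). Myelin genes had a median of -0.07 over 20 genes, 17 negative, which turned positive without APPKO array 2 and with the choroid plexus covariate. Genes of oxidative phosphorylation (27 of 31 negative, median -0.06), cytosolic ribosomal proteins (18 of 19, -0.07) and ER stress and heat shock (21 of 25, -0.11) had negative medians. With quantile normalization the counts of negative genes were 21 for oxidative phosphorylation and 12 for ribosomal proteins, and the ER stress median turned positive (0.02) with the choroid plexus covariate.

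The labelled loss of APLP2 was then read in APLP2KO against WT, which shares no array with N-dCKO against APPKO. Both come from the same fit and share each gene's estimate of spread. A gene with little spread is thus favoured in both, and agreement in p below is not independent. APLP2KO against WT called 15 genes (0.129%), 7 higher (0.06%) and 8 lower (0.0686%). At an unadjusted p below 0.05 there were 868 (7.44%), and 513 (4.4%) did not overlap. Of the 41 genes called without APP, 39 had the same sign with APP present, against 57.7% of all genes, and 26 had it with an unadjusted p below 0.05, against 5.37% of all genes. Called in both were 8 genes, namely Aplp2, Pdgfd, Ddx6, 2900052N01Rik, Fxyd2, Coro2b, Mpeg1 and Trub2. Of the 15 genes called with APP present all had the same sign without APP, 13 of them with an unadjusted p below 0.05. Across all genes, which are not independent replicates, the log2 fold changes of the comparisons had a Pearson r of 0.341 and a Spearman rho of 0.227.

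All 9 genes of the chromosome 9 set had the same sign and an unadjusted p below 0.05 in APLP2KO against WT, and 5 were called there. Their sizes differed in part: Spink8 was at -1.07 ± 0.19 without and -0.74 ± 0.19 with APP, Ccdc12 at -0.28 ± 0.05 and -0.15 ± 0.05, Tmem30a at -0.37 ± 0.08 and -0.28 ± 0.08, Neo1 at 0.43 ± 0.07 and 0.33 ± 0.07, and Coro2b at -0.57 ± 0.12 and -0.68 ± 0.12. Of the others, 2900052N01Rik was at 1.02 ± 0.16 without and 1.02 ± 0.16 with APP, Fxyd2 at 1.02 ± 0.17 and 1.12 ± 0.17, Pdgfd at -1.59 ± 0.23 and -1.46 ± 0.23, and Ddx6 at -0.55 ± 0.08 and -0.61 ± 0.08. Of the 15 other genes 12 had the same sign and an unadjusted p below 0.05, among them Mpeg1 (-0.86 ± 0.14 and -1.12 ± 0.14), Card10 (1.16 ± 0.19 and 0.94 ± 0.19), Exosc9 (-1.06 ± 0.18 and -0.89 ± 0.18) and Fcrls (-0.72 ± 0.15 and -0.66 ± 0.15). The microglia list had a median of -0.21 there, with 20 of 23 negative.

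In the choroid plexus set 15 of the 16 genes had the same sign with APP present, but 4 had an unadjusted p below 0.05 and 0 were called. Their median size was 2.43 on the log2 scale without APP and 0.59 with it. These genes were picked by their call without APP, which favours a larger size there. Over the 20 tested genes of the whole choroid plexus list, medians were -1.59 without and -0.46 with APP. With APP present 18 of the 20 were negative. The list does not rest on this call but was chosen with earlier results of these data known. Clic6 was at -3.33 ± 0.55 and -0.77 ± 0.55, Otx2 at -2.96 ± 0.55 and -0.45 ± 0.55, and Aqp1 at -2.37 ± 0.39 and -0.68 ± 0.39. For Ttr the 4 APLP2KO arrays (26839 to 35056) overlapped the WT arrays (26344 to 33519).

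**Figure D5:**
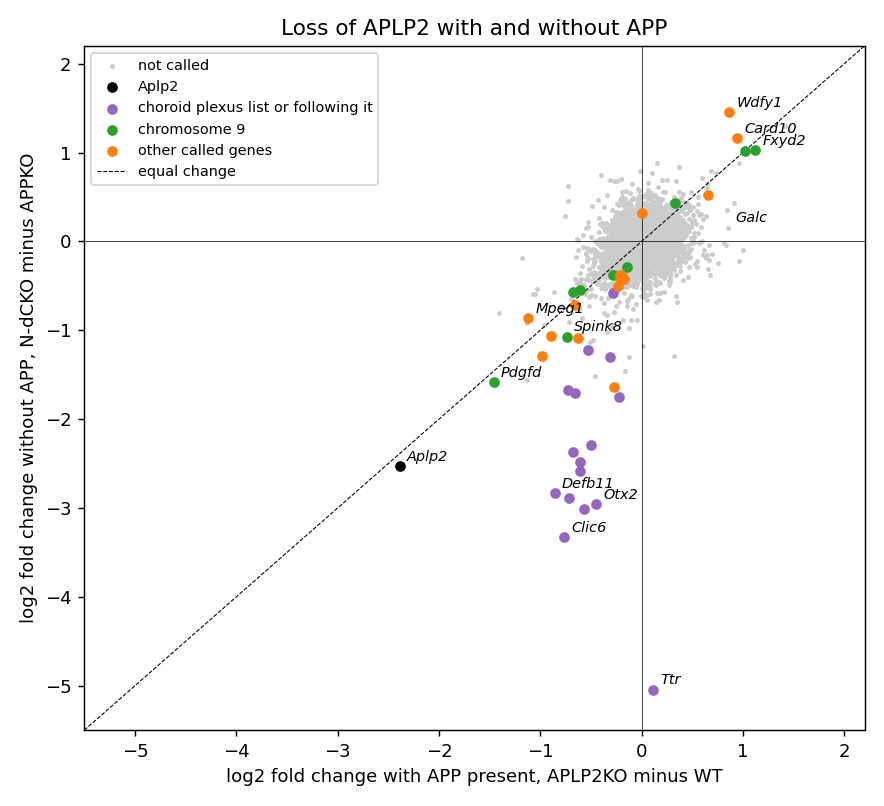
Log2 fold change of the loss of APLP2 with APP present (APLP2KO minus WT, x axis) and without APP (N-dCKO minus APPKO, y axis) for the 11664 genes tested; the dashed line marks equal change. Aplp2, Pdgfd and Mpeg1 lie near the line, and the choroid plexus set lies below it, for example Clic6 at -0.77 and -3.33.

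The test of the difference between the comparisons called 0 of 11664 genes with limma; 484 (4.15%) had an unadjusted p below 0.05, and the ordinary test also called 0. The smallest p were those of Galc, Gfpt1, Cyb5d2, Cln8 and Slc32a1. Galc, the lysosomal galactosylceramidase, was at 0.16 ± 0.10 without APP and 0.86 ± 0.10 with it, where it was called (adjusted p = 0.00014). Gfpt1, the entry enzyme of the hexosamine pathway, was at 0.23 ± 0.05 and -0.09 ± 0.05, Cyb5d2 at -0.49 ± 0.13 and 0.27 ± 0.13, Cln8, an ER protein needed for lysosome biogenesis, at -0.37 ± 0.11 and 0.24 ± 0.11, and Slc32a1, the vesicular GABA transporter, at 0.22 ± 0.08 and -0.20 ± 0.08. Without N-dCKO array 3 the test called 11 genes, all with negative differences: 10 of the choroid plexus set, from Ttr and Clic6 (difference -3.42 ± 0.41, adjusted p = 0.00071) to Kcnj13 (-2.35 ± 0.43, 0.0393), and Galc (-0.75 ± 0.14, 0.0393). Among the fits run, a difference in the size of the choroid plexus fall therefore passed the test only in the one without that array. Since the double knockout may be conditional, the presence of APP cannot be told apart in this difference from how APLP2 was deleted.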

How the data were processed

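Hippocampal RNA of 16 samples, 4 a group, was read on Affymetrix mouse arrays. The deposited values are intensity, 1 linear signal per probe set and array, for which the authors used MAS5, per the submitters' processing notes, which name no version. The number of arrays limits the precision. Symbols came from the platform's annotation, in which 34945 of 45101 probe sets had 1 symbol, 932 several and 9224 none or no entry, and 34741 were found in RefSeq's GRCm38.p6 genes.

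Signals were transformed as log2(signal + 9). Probe sets with a mean log2 signal below the 50th percentile (6.602) were left out, and each gene was represented by its brightest remaining probe set, which gave 11664 genes. All 16 arrays were fitted in limma 3.58.1 (R 4.3.3, data.table, version 1.17.8) with lmFit and eBayes with a variance trend (12 residual df), and p-values were adjusted by Benjamini-Hochberg at 0.05. Single values were compared with exact two-sided permutation tests, whose smallest p is 0.0286. Scripts were tested on simulated data.

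The members, the 40 gene lists and the tests were chosen with earlier results of these data known. Named were App, Aplp2 and Aplp1, the 15 largest called rises and falls without overlap, called list members, genes called in both comparisons, called genes within 20 Mb of Aplp2, the 5 smallest p of the difference, and the 2 smallest p of lists with no call. The other called genes and the other list members given were chosen after their values were seen. Alternatives covered scaling, pseudocount, filter, probe set choice, variance model, covariates, a replicate block and each array left out. 2 more, N-dCKO array 3 as the only N-dCKO array and the fit without genes that follow the choroid plexus list, were chosen after seeing the data. Same-numbered arrays deviated together little if at all (r from -0.02 to 0.0523 between N-dCKO and APPKO). Between APLP2KO and WT r was 0.0056 to 0.0777. The numbers were therefore not taken as pairs, though counts rose with the number as a block, as given below. Whether same-numbered arrays were handled together was not tested.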

Additional observations from a re-analysis of the deposited data

Results flagged for a closer look

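Within a group of 4 arrays, the gap between an extreme array and its nearest neighbour was divided by the range of the group and read against Dixon's 95% critical value, which chance passes in about 1 in 20 groups. Of 166 groups of genes or list means tested, 10 passed. N-dCKO array 3 was the highest of its group for Folr1 (0.875), Cldn2 (0.832), Steap1 (0.910), Sostdc1 (0.891), Kcne2 (0.855) and Krt18 (0.868), genes of epithelia that lie within or beside the choroid plexus set. Aplp1 was highest on APPKO array 3 (0.892).

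Of list means, that of the leptomeninges was highest on APPKO array 4 (0.861), that of synaptic adhesion lowest on APPKO array 3 (0.858) and that of the amyloid-beta carriers lowest on APPKO array 1 (0.833). Among 2461 probe sets without 1 gene symbol, which the comparisons above do not use, 3 were called in N-dCKO against APPKO, 2 lower and 1 higher.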

How the results depend on the processing

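The 41 calls of N-dCKO against APPKO became 15 with a filter at the 75th percentile, 20 without the variance trend, 9 with only the groups compared, 1 with choroid plexus signal as a covariate, 20 with the Gapdh ratio as a covariate and 2 with the ordinary test. They became 12 with N-dCKO array 3 alone, where that array is assumed to vary like the other groups, and 16 without the genes that follow the choroid plexus list. With array 3 alone N-dCKO has no spread of its own, and that setting was chosen after seeing the data. Nothing is read from its count. The 41 calls ranged from 19 to 56 when each array was left out. The count was 22 without APPKO array 3, 19 without APPKO array 4 and 20 without N-dCKO array 4. Other settings gave 31 to 59. The 15 calls of APLP2KO against WT became 3 with the 75th percentile filter, 25 with each probe set alone, 8 with the Gapdh covariate and 7 with the ordinary test, and ranged from 9 to 19 with each array left out. They were 9 without WT array 1, 2 or 3.

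The 8 genes called in both became 3 with the 75th percentile filter, 4 with only the groups compared, 1 under the choroid plexus covariate and 1 by the ordinary test, and ranged from 6 to 11 with each array left out. The 1 call near Aplp2 became 2 with each probe set alone and 4 in a window of 20 Mb, and ranged from 1 to 2 with each array left out. The 0 calls of the difference ranged from 0 to 11, the latter without N-dCKO array 3. With the replicate number as a block, which was not taken as a pairing, the counts were 57 for N-dCKO against APPKO and 30 for APLP2KO against WT. There were 16 in both, 2 near Aplp2 and 0 for the difference, and 1 of the 4 N-dCKO arrays matched its own number best. Signs turned for Kcnj13 (0.0075), Otx2 (0.024) and Kcne2 (0.19) under the choroid plexus covariate, and for Ttr (0.11) with N-dCKO array 3 alone. Fewer genes or arrays entered some of these fits; the cause was not tested for the rest.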

Other observations

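Of 23 genes of neurotrophins and growth factors, Pdgfd, given above, was the 1 called, and 15 were negative. The lists that follow held no called gene. Of 15 astrocyte genes 10 were positive, with the glutamate transporter Slc1a3 at 0.21 ± 0.07 (limma adjusted p = 0.329). Of 24 neuropeptide and granin genes 17 were positive, and Cartpt, the precursor of CART peptides, read 247, 276, 179 and 171 in N-dCKO and 144, 150.2, 143 and 149.9 in APPKO (0.52 ± 0.16, 0.289) without overlap. Of 29 axon guidance genes 19 were positive, with the semaphorin receptor Plxna2 at 0.14 ± 0.07 (0.67). Of 21 immediate early genes 14 were positive, and 15 of 22 cholesterol and fatty acid synthesis genes were positive, with Sc5d, a late enzyme of cholesterol synthesis, at -0.23 ± 0.09 (0.483).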
